A study of Homo sapiens with 6 samples.

Results

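In human K562 cells carrying short hairpin RNAs (shRNAs) against the m6A writers METTL3 and METTL14, 31 genes of the SR and hnRNP splicing factor families were examined. They were chosen by name, with earlier results of these data known. The names were SRSF1 to SRSF11, the SR-related TRA2A and TRA2B, and 18 hnRNP genes (HNRNPA0, A1, A3, AB, D, DL, F, H1, H2, H3, K, L, LL, M, R, U, UL1 and UL2). HNRNPA2B1 and HNRNPC, which are known as m6A readers, were left out. Each symbol matched 1 of the 61661 rows of the count table.

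K562 is an established chronic myeloid leukemia line of the blast stage. RNA-seq had been run on 6 libraries, 2 each of cells labelled shCTR, shMETTL3 and shMETTL14, to learn which pathways change when either writer is depleted. For the METTL3 line, the methods describe a stable line made with a pLent-U6-GFP-puro lentivirus, a control virus with a nonsense insert in the same vector, and selection with puromycin, so the control cells carry vector and selection as well. The making of the shMETTL14 line was not given in the sources used here, and no untransduced K562 cells were included. The supplement lists 1 hairpin sequence for METTL3 and none for METTL14. The labels name the cells, the target and a number, and nothing that marks the libraries of a group as separate lines or cultures. The p-values therefore measure the spread between these libraries, which may be technical.

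Members of the SR family bind exonic enhancers through RNA recognition motifs and recruit the splicing machinery through domains rich in arginine and serine. The hnRNPs coat nascent transcripts and often work against SR proteins at nearby sites, so the balance of the families influences which exons are kept. Many of these genes also restrain their own level through conserved exons that send the mRNA to nonsense-mediated decay (NMD), and METTL3 and METTL14 form the heterodimer that methylates adenosine in nascent mRNA.

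Library totals ran from 19292574 to 20115304 reads, and the 31 genes held between 1149 and 65119 reads in a library with a median of 4746, so all of them passed the filter on low counts that left 17686 genes for testing. METTL3 had 1788 and 1728 reads with shCTR, 1031 and 938 with shMETTL3, and 1731 and 1498 with shMETTL14, a log2 fold change of -0.87 in shMETTL3 (standard error, SE 0.0783). METTL14 had 656 and 655 reads with shCTR, 752 and 710 with shMETTL3, and 375 and 404 with shMETTL14, a log2 fold change of -0.76 in shMETTL14 (SE 0.0886). Each target was low in the libraries labelled for it, and METTL3 fell by 45.1%. All 12 erythroid markers of K562 cells were above 3 reads in some library, whereas 7 of 10 monocyte and granulocyte markers and 4 of 10 lymphocyte markers were at or under 3 reads in every library.

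The combined share of reads of the 31 genes was lowest in shMETTL3. It was 1.24% and 1.21% in shCTR, 1.13% and 1.11% in shMETTL3, and 1.196% and 1.171% in shMETTL14. For the SR and TRA2 genes it was 0.282% and 0.274% in shCTR, 0.261% and 0.257% in shMETTL3, and 0.280% and 0.272% in shMETTL14. For the hnRNP genes it was 0.959% and 0.940%, 0.868% and 0.850%, and 0.916% and 0.899% in the same order. Both shMETTL3 libraries were below all other libraries in all of these shares. In bulk RNA these shares, and every value below, are relative to the other genes in the library, and fewer cells with a transcript cannot be told apart from less of it per cell.

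On a scale per length, TMM-scaled CPM (reads scaled to a common library size with the TMM factors of edgeR) divided by the length in kilobases of the coding transcript chosen for each gene, the level in shCTR cells differed widely. HNRNPA1, a shuttling repressor of exon inclusion, stood at 1799 CPM per kilobase. HNRNPH1, which binds runs of G, had 413 and HNRNPA3 had 398, and the highest SR gene was SRSF1 with 156. That rank depends on the transcript chosen, which has 1317 bases where the longest of SRSF1 has 3117. Before division by length SRSF11, with 131 per kilobase, was higher, at 497 CPM against 206 for SRSF1. The lowest were SRSF8 with 22.8 and HNRNPUL2 with 16.7. HNRNPA1 alone took 26.1% of the reads of the 31 genes in the first shCTR library and 24.2% in the first shMETTL3 library. Its transcript also had the largest share in common with other genes, since 67.4% of its 50-base stretches occurred in another gene of GENCODE 29. The shares were 65.1% for SRSF1, 49.9% for HNRNPA3, 45.2% for HNRNPUL2 and 32.3% for HNRNPL. The number of sharing genes was 54 for HNRNPA1, 14 for HNRNPA3, 3 for HNRNPL and 1 each for SRSF1 and HNRNPUL2. The gene for HNRNPUL2, HNRNPUL2-BSCL2, overlaps it on the same strand, so its share marks the same locus annotated again and not a copy elsewhere. A same-strand gene also covers 56.6% of the exonic bases of SRSF1, and another covers 8.22% of those of HNRNPL. Whether the stretches of SRSF1 and HNRNPL are shared with these genes was not tested. SRSF2 and HNRNPLL shared none.

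The sequence GGACT, a frequent form of the site that the METTL3-METTL14 complex methylates, was searched on the transcript strand of 1 GENCODE 29 coding transcript per gene (GRCh38). It occurred in 27 of 31 genes (87.1%) and in 90.8% of the 12512 tested genes with a coding transcript, with a median of 0.726 per kilobase against 0.945. The windows below are from the genes on which the comparisons turn, SRSF2, SRSF8, HNRNPA1 and HNRNPLL, and from SRSF3, whose values ran the other way. GGACT is in capitals, and each window of 21 bases lies in 1 exon of the coding region or 3′ UTR and reads 5′ to 3′ along the transcript, which is on the minus strand for SRSF2 and HNRNPLL and on the plus strand for the others.
SRSF2, coding, chr17:76736861-76736881: cgccccccGGACTcacaccac
SRSF2, 3′ UTR, chr17:76735686-76735706: actgactgGGACTtcatattc
SRSF2, 3′ UTR, chr17:76735120-76735140: taaacggaGGACTtggggaaa
SRSF8, 3′ UTR, chr11:95068100-95068120: gtgatggaGGACTtgggggaa
SRSF8, 3′ UTR, chr11:95068592-95068612: atgtgaaaGGACTggggtttt
HNRNPA1, 3′ UTR, chr12:54284702-54284722: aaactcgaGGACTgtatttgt
HNRNPLL, coding, chr2:38591582-38591602: atgttcgaGGACTctgtgaat
HNRNPLL, coding, chr2:38581932-38581952: gacagttgGGACTacactaaa
HNRNPLL, 3′ UTR, chr2:38562385-38562405: tgttggcaGGACTtatttcat
SRSF3, coding, chr6:36596778-36596798: tgtccattGGACTgtaaggtt
SRSF3, 3′ UTR, chr6:36605556-36605576: cccttgttGGACTctgtactt
A match is a description of the letters only, since methylation was not measured in these libraries. The median density was 0.946 per kilobase in the 15 genes called lower in shMETTL3 below and 0.573 in the other 16.

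**Figure D1:**
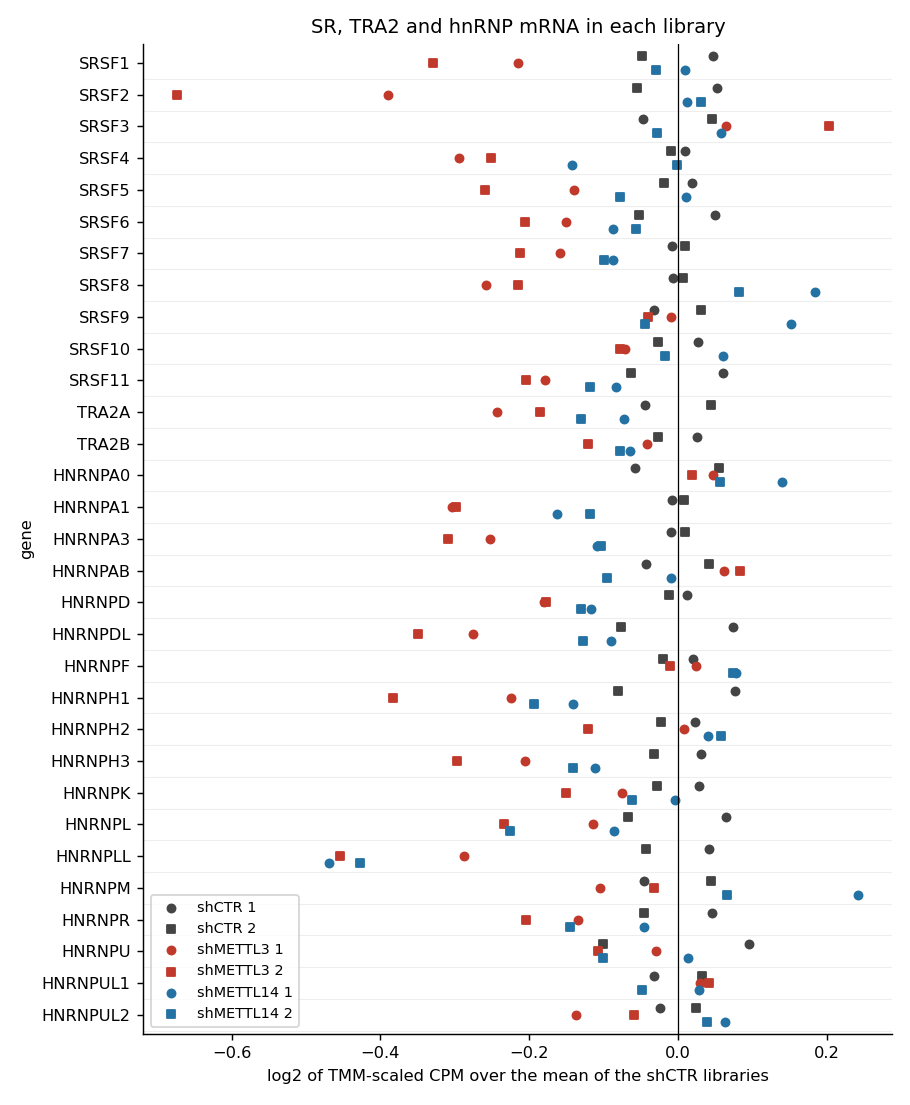
Level of each of the 31 genes in each of the 6 libraries, as the log2 of its TMM-scaled CPM over the mean of the shCTR libraries (x axis), one gene per line. Colour gives the group and the shape of a point the library number; for SRSF2 both shMETTL3 libraries lie far to the left, and for HNRNPLL the libraries of both knockdowns do.

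In shMETTL3 cells 15 of the 31 genes were lower than in shCTR cells and none was higher. Of these, 7 were among the 11 SR genes, 1 was a TRA2 gene and 7 were among the 18 hnRNP genes. The largest fall was that of SRSF2, which decreased by 30.5% on the fitted scale, and HNRNPLL followed, which decreased by 22.5%; HNRNPD, with the smallest fall, decreased by 11.7%. On the higher side SRSF3 alone had an unadjusted p below 0.05 in edgeR's test, and DESeq2 called 16 genes lower and 0 higher. Across all genes tested 7.73% were called lower, and among the 4019 genes at or above the level of the lowest of the 31 genes the share was 18.3%. The median log2 fold change was -0.18 over the 31 genes, 0.00 over all genes tested and -0.06 over those 4019. The call is an adjusted p below 0.05 in the quasi-likelihood test of edgeR, adjusted over all 17686 genes by the Benjamini-Hochberg method. Both shMETTL3 libraries lay below both shCTR libraries for 22 of the 31 genes (71.0%), against 27.3% of all genes tested and 44.0% of the 4019, and above both for SRSF3 and HNRNPAB.

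The count changed when a shMETTL3 library was left out. Without the second, 2 genes kept the call, SRSF2 and HNRNPA1, while 25 of 31 fold changes remained negative with a median of -0.14, and over all genes the share called lower was 2.24%. Without the first, 8 genes kept the call and the share over all genes was 3.46%. Scaled by library size alone, 9 genes were called lower and 1, SRSF3, higher, and over all genes 2158 were called higher and 858 lower, against 1544 and 1368 with TMM.

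SRSF2, an SR protein with a role in both splicing and transcription elongation, had 3882 and 3491 reads with shCTR, 2840 and 2384 with shMETTL3, and 3751 and 3792 with shMETTL14. The 2 shMETTL3 libraries were the lowest and differed from each other, while shCTR and shMETTL14 overlapped. Its level was 189 ± 9.97 CPM (SD, n = 2) in shCTR, 132 ± 18.2 CPM (SD, n = 2) in shMETTL3 and 192 ± 1.79 CPM (SD, n = 2) in shMETTL14. The log2 fold change in shMETTL3 was -0.52 (SE 0.0766; adjusted p = 9.97e-05 in edgeR's test), and the call held under all 15 other settings tried. The gene lies at chr17:76734115-76737374 on the minus strand. Exons of MFSD11 on the opposite strand cover 36.7% of the exonic bases of SRSF2, and the sources used here do not say whether the counting used strand. MFSD11 itself had between 704 and 755 reads in all 6 libraries, with a log2 fold change of -0.02.

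SRSF8 is an intronless gene that arose as a copy of SRSF2. It had 1809 and 1770 reads with shCTR, 1511 and 1590 with shMETTL3, and 2054 and 1908 with shMETTL14. The 3 groups did not overlap: shMETTL3 was lowest and shMETTL14 highest. The log2 fold change in shMETTL3 was -0.24 (SE 0.0660; adjusted p = 0.0182 in edgeR's test). This call was lost with library size alone, where the log2 fold change was -0.18. No 50-base stretch of the SRSF2 transcript occurred in SRSF8 or in any other gene.

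SRSF1, the founding SR protein and a regulator of constitutive and alternative splicing, had 4200 and 3806 reads with shCTR, 3479 and 3284 with shMETTL3, and 4068 and 3950 with shMETTL14. The shMETTL3 libraries were below the others, and shMETTL14 lay within the shCTR range. The log2 fold change in shMETTL3 was -0.27 (SE 0.0634; adjusted p = 0.00596 in edgeR's test). A further annotated gene on the same strand covers 56.6% of the exonic bases of SRSF1 and had no reads in any library. How reads in shared exons were counted is not given, so this cannot show whether the overlap affects the SRSF1 counts.

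A further 4 SR genes, SRSF4, SRSF5, SRSF7 and SRSF11, also fell, as did TRA2A. SRSF4, an SR protein with a long arginine-serine domain, had 3308 and 3164 reads with shCTR, 2664 and 2803 with shMETTL3, and a log2 fold change of -0.27 (SE 0.0643). SRSF5 had 6010 and 5671 reads with shCTR, 5350 and 5033 with shMETTL3, and a log2 fold change of -0.20 (SE 0.0614). SRSF7, which carries a zinc knuckle, had 4718 and 4626 reads with shCTR, 4227 and 4160 with shMETTL3, and a log2 fold change of -0.19 (SE 0.0581). For each of these the groups did not overlap. SRSF11, an SR-related protein, had 10244 and 9105 reads with shCTR, 8622 and 8658 with shMETTL3, and a log2 fold change of -0.19 (SE 0.0580). TRA2A, a sequence-specific activator of exon inclusion, had 1828 and 1883 reads with shCTR, 1584 and 1684 with shMETTL3, and a log2 fold change of -0.21 (SE 0.0660). These groups did not overlap either, and the adjusted p values in edgeR's test were 0.00638 for SRSF4, 0.0313 for SRSF5, 0.0338 for SRSF7, 0.0280 for SRSF11 and 0.0312 for TRA2A. SRSF5, SRSF7, SRSF11 and TRA2A lost the call with library size alone and with a correction for GC content and for length, where their log2 fold changes were -0.11, -0.10, -0.08 and -0.11. SRSF7 was the called gene nearest to the threshold and SRSF6 the nearest outside it, with a log2 fold change of -0.18 and an adjusted p of 0.0517 in edgeR's test.

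SRSF3, the smallest SR protein and a factor in mRNA export, had 6178 and 6384 reads with shCTR, 6636 and 7463 with shMETTL3, and 6609 and 6209 with shMETTL14. Both shMETTL3 libraries were above both shCTR libraries, with a log2 fold change of 0.14 (SE 0.0631; adjusted p = 0.154 in edgeR's test), which did not pass. It was called higher with library size alone and with a correction for GC content and for length. SRSF9, SRSF10 and TRA2B had log2 fold changes of -0.02, -0.07 and -0.08. Their 95% intervals were -0.17 to 0.12 for SRSF9, -0.20 to 0.05 for SRSF10 and -0.21 to 0.05 for TRA2B, and that of SRSF6 was -0.31 to -0.05.

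Among the hnRNP genes, HNRNPA1 had 65119 and 63824 reads with shCTR, 52751 and 54077 with shMETTL3, and 58199 and 59831 with shMETTL14. The 3 groups did not overlap, with shMETTL14 between the others. Its level was 3314 ± 27.2 CPM (SD, n = 2) in shCTR and 2690 ± 6.81 CPM (SD, n = 2) in shMETTL3, a log2 fold change of -0.30 (SE 0.0482; adjusted p = 2.62e-04 in edgeR's test). The call held under all 15 other settings, including one in which the reads of 74 named HNRNPA1 pseudogenes were added. Those made up 1.80% of the sum. How reads matching several genes were counted is not given, so this setting cannot restore any that were left out. HNRNPA3, a close relative, had 16153 and 15866 reads with shCTR, 13569 and 13335 with shMETTL3, and 14997 and 15023 with shMETTL14. Its groups were ordered in the same way, and its log2 fold change in shMETTL3 was -0.28 (SE 0.0531; adjusted p = 0.00117 in edgeR's test). HNRNPA0, the intronless member of this subfamily, had a log2 fold change of 0.03.

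HNRNPLL, which controls alternative splicing of CD45 in lymphocytes, had 2652 and 2424 reads with shCTR, 2099 and 1910 with shMETTL3, and 1852 and 1901 with shMETTL14. All 4 knockdown libraries were below both shCTR libraries, and the knockdowns overlapped each other in CPM. The log2 fold change in shMETTL3 was -0.37 (SE 0.0687; adjusted p = 0.00102 in edgeR's test). Its paralog HNRNPL had 4988 and 4408 reads with shCTR and 4380 and 4117 with shMETTL3, with a log2 fold change of -0.17 that did not pass.

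HNRNPD, also known as the AU-rich element binding protein AUF1, had 12630 and 12041 reads with shCTR, 10996 and 11246 with shMETTL3, and a log2 fold change of -0.18 (SE 0.0533; adjusted p = 0.0256 in edgeR's test). Its relative HNRNPDL had 5932 and 5179 reads with shCTR, 4631 and 4494 with shMETTL3, and a log2 fold change of -0.31 (SE 0.0631; adjusted p = 0.00200 in edgeR's test). Neither overlapped between the groups. HNRNPAB, the third of these related genes, had 5308 and 5453 reads with shCTR, 5672 and 5881 with shMETTL3, and a log2 fold change of 0.07 that did not pass. The differences between these relatives were not tested.

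In the H and F subfamily, which binds G-rich RNA, HNRNPH1 had 18187 and 15806 reads with shCTR, 14673 and 13430 with shMETTL3, and a log2 fold change of -0.30 (SE 0.0637; adjusted p = 0.00275 in edgeR's test). HNRNPH3 had 4837 and 4486 reads with shCTR, 4080 and 3913 with shMETTL3, and a log2 fold change of -0.25 (SE 0.0604; adjusted p = 0.00747 in edgeR's test). Both genes were lower without overlap. HNRNPH2 and HNRNPF, which encode close homologs, had log2 fold changes of -0.06 and 0.01 with overlapping groups.

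The remaining hnRNP genes did not pass. HNRNPK, a KH domain protein that binds C-rich RNA, had a log2 fold change of -0.11, and HNRNPR, whose protein is also found in axons, had -0.17. HNRNPU, a scaffold attachment factor, had -0.07, and its relatives HNRNPUL1 and HNRNPUL2 had 0.04 and -0.10. HNRNPM, a repressor and activator of exons bound at GU-rich sites, had -0.07. The lowest and highest bounds of the 95% intervals of the 11 uncalled hnRNP genes were -0.32 and 0.20.

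**Figure D2:**
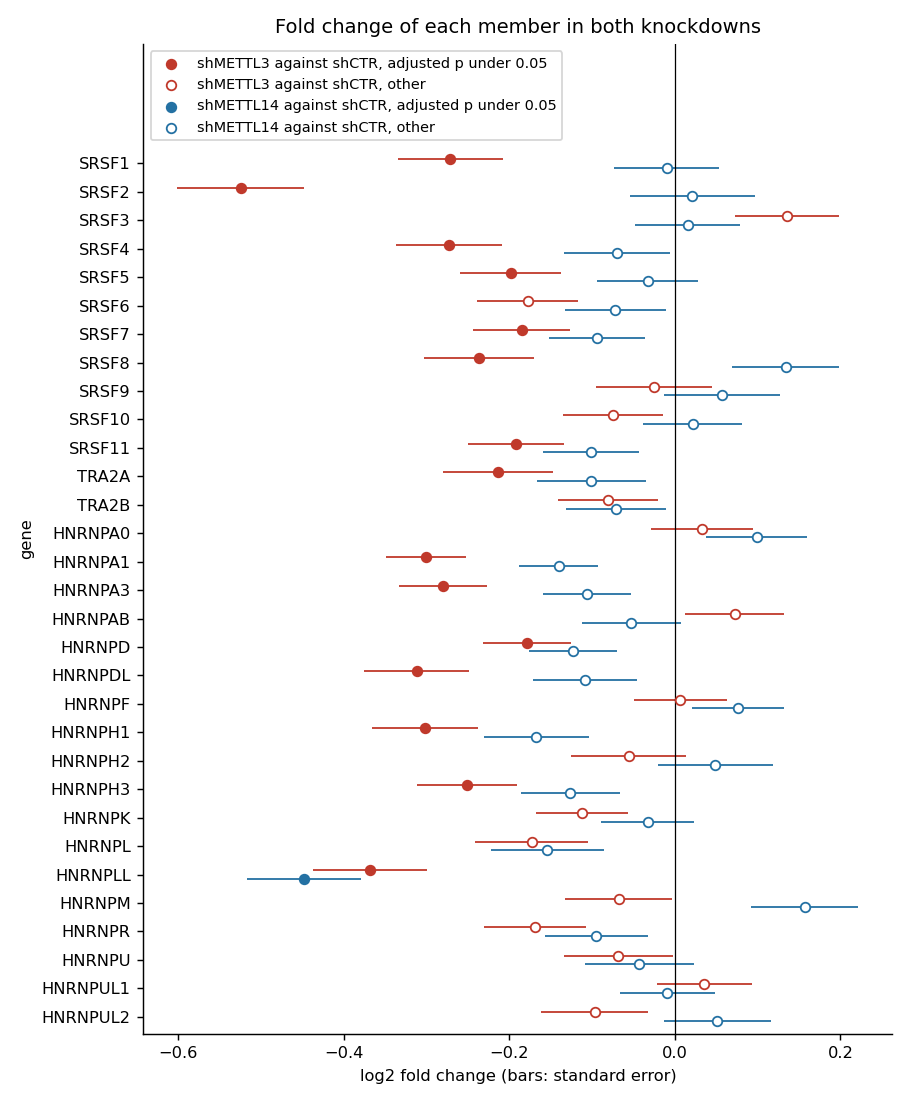
Log2 fold change (x axis) with its standard error as bars for each of the 31 genes, in shMETTL3 and in shMETTL14 against the same shCTR libraries. Filled points have an adjusted p below 0.05; 15 are filled for shMETTL3, all of them left of 0, and 1 for shMETTL14, HNRNPLL.

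In shMETTL14 cells 1 of the 31 genes was called, HNRNPLL, which was lower; 3.26% of all genes tested and 6.52% of the 4019 genes of like level were called lower. Its reads, given above, correspond to 130 ± 5.37 CPM (SD, n = 2) in shCTR and 95.6 ± 1.92 CPM (SD, n = 2) in shMETTL14. The log2 fold change was -0.45 (SE 0.0690; adjusted p = 3.23e-04 in edgeR's test), and the call held under all 15 other settings. Both shMETTL14 libraries lay below both shCTR libraries for 13 genes, against 23.9% of all genes tested and 33.1% of those of like level, and above both for 6.

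The other 30 genes had log2 fold changes from -0.17 for HNRNPH1 to 0.16 for HNRNPM, with a median of -0.05 over all 31. An unadjusted p below 0.05 in edgeR's test was found for 7 of the 31 genes, all of them hnRNP genes and among them HNRNPLL and, on the higher side, HNRNPM, against 3665 of all 17686 genes tested. A difference between the SR and the hnRNP genes was not tested. The 95% intervals of the SR and TRA2 genes reached from -0.24 to 0.27. For SRSF2 the interval was -0.14 to 0.18 around a log2 fold change of 0.02. HNRNPA1, at -0.14 (SE 0.0482), had an adjusted p of 0.0899 in edgeR's test. These fold changes share their control libraries with those of shMETTL3.

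Set against each other, shMETTL3 cells were lower than shMETTL14 cells in 8 genes and higher in none, against 5.49% called lower among all genes tested and 9.70% among the 4019 genes of like level. Both shMETTL3 libraries lay below both shMETTL14 libraries for 22 of the 31 genes (71.0%), against 28.3% of all genes and 41.9% of the 4019 genes of like level, and above both for 3. SRSF2 had the largest difference, with a log2 value of -0.55 (SE 0.0765; adjusted p = 5.90e-05 in edgeR's test). SRSF8 followed with -0.37 (SE 0.0657; adjusted p = 6.75e-04 in edgeR's test), where shMETTL3 was below and shMETTL14 above shCTR. Both held under all 15 other settings.

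The other differences between the knockdowns were smaller. They were -0.26 for SRSF1, -0.20 for SRSF4, -0.16 for HNRNPA1, -0.17 for HNRNPA3, -0.20 for HNRNPDL and -0.22 for HNRNPM on the log2 scale. HNRNPM had 6430 and 6634 reads with shCTR, 6139 and 6590 with shMETTL3, and 7808 and 6895 with shMETTL14. It was called in neither knockdown against shCTR, and its first shMETTL14 library was the highest of all. Without any 1 library of either knockdown between 2 and 3 of the 8 calls remained. HNRNPLL, lower in both knockdowns, differed between them by 0.08 (SE 0.0696; adjusted p = 0.530 in edgeR's test).

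The other genes of the splicing machinery were described from lists by function, also chosen with earlier results of these data known. Among the kinases, phosphatases and import factors of SR proteins, 1 of 13 tested genes was lower in shMETTL3 and none higher; it was SRPK1, the kinase that phosphorylates SR proteins in the cytoplasm, at a log2 fold change of -0.22. Of 16 genes for U1 and Sm proteins, which recognise the 5′ splice site and form the core of the snRNPs, 6 were lower, among them LUC7L3 at -0.40 and LUC7L at -0.33. Of 22 genes for U2 and recognition of the 3′ splice site, 5 were lower, among them SF3B1 at -0.33, SNRPB2 at -0.31 and DDX46 at -0.26. Of 38 genes for the U4/U6.U5 tri-snRNP and activation, 10 were lower, with PRPF3 at -0.44, PRPF6 at -0.39 and PPIH at -0.38 as the largest. None of these 3 lists had a gene called higher. The shares called lower in the 4 lists were 7.69%, 37.5%, 22.7% and 26.3%, to be read against 7.73% of all genes tested and 18.3% of the 4019 genes of like level.

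Of 56 other splicing regulators tested, 18 (32.1%) were lower and 1 was higher in shMETTL3. MBNL1, a muscleblind protein, was at -0.47, SRRM1, a coactivator with arginine-serine repeats, at -0.34 and SREK1 at -0.32. The medians of the 5 lists in the order given were -0.07, -0.16, -0.11, -0.11 and -0.12, against 0.00 over all genes tested and -0.06 over the 4019 genes of like level. In shMETTL14 the lists had 0, 1, 1, 1 and 2 genes lower and 1 higher: SNRPF at -0.26, SNRPA1 at -0.30, LSM2 at -0.30, QKI at -0.25, TIAL1 at -0.22 and DYRK1A at 0.21. These shares, 0% to 6.25% lower, were near the 3.26% of all genes tested and the 6.52% of the genes of like level. Between the knockdowns, shMETTL3 was lower in 0, 1, 3, 6 and 4 genes and higher in 0, 0, 1, 0 and 3, where 5.49% of all genes tested and 9.70% of the genes of like level were called lower. Among them were MBNL1 at -0.39, QKI at 0.35, SREK1 at -0.34 and SF3B5 at -0.32.

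**Figure D3:**
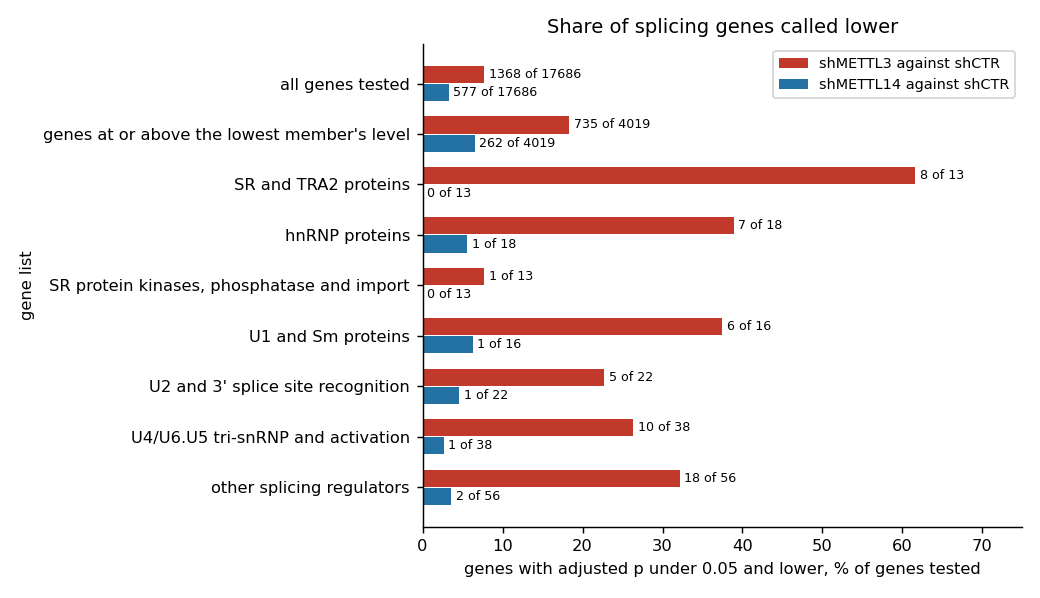
Share of tested genes called lower (x axis, %) in each gene list, for shMETTL3 and shMETTL14 against shCTR, beside all genes tested and the 4019 genes at or above the level of the lowest SR or hnRNP gene. The numbers give genes called lower of genes tested; the SR and TRA2 genes reach 8 of 13 in shMETTL3 and 0 of 13 in shMETTL14.

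The 31 genes were low in GC, with a median of 41.2% in the longest annotated transcript against 48.2% over the tested genes, and GC content moved with the fold change in shMETTL3. Of the 24 genes under 45% GC, 14 were called lower with a median log2 fold change of -0.19, and of the 7 at or above it 1 was, SRSF2, with a median of -0.07. Over all tested genes 12.1% of 6262 under 45% GC and 5.14% of 10400 above were called lower. With a correction for GC content and length, 10 of the 15 genes kept the call, 12 in all were lower and SRSF3 was higher, and the median moved from -0.18 to -0.10, while the share of all tested genes called lower was 10.9%. HNRNPD lost its call, at a corrected log2 fold change of -0.07, as did the 4 SR and TRA2 genes named above.

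Erythroid and other markers also differed between the groups. In shMETTL3, 5 of the 12 erythroid markers were higher and 1 lower. ALAS2 led at a log2 fold change of 1.77, with HBZ at 1.02 and HBE1 at 0.96. In shMETTL14, 4 of the 12 were higher and 0 lower, with ALAS2 at 1.19, HBE1 at 0.41 and EPOR at 0.40. Over all genes tested, 8.73% were called higher in shMETTL3 and 3.43% in shMETTL14. The summed level of the 12 markers was scaled by library size alone. It was 1773 and 1761 CPM in shCTR, 2048 and 2062 in shMETTL3, and 1825 and 1859 in shMETTL14. The summed level of the monocyte and granulocyte markers, nearly all from LYZ, was scaled in the same way. It was 42.2 and 43.6 CPM in shCTR, 17.9 and 16.5 in shMETTL3, and 60.9 and 66.5 in shMETTL14. The part of these differences in the splicing factor values was not tested.

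**Figure D4:**
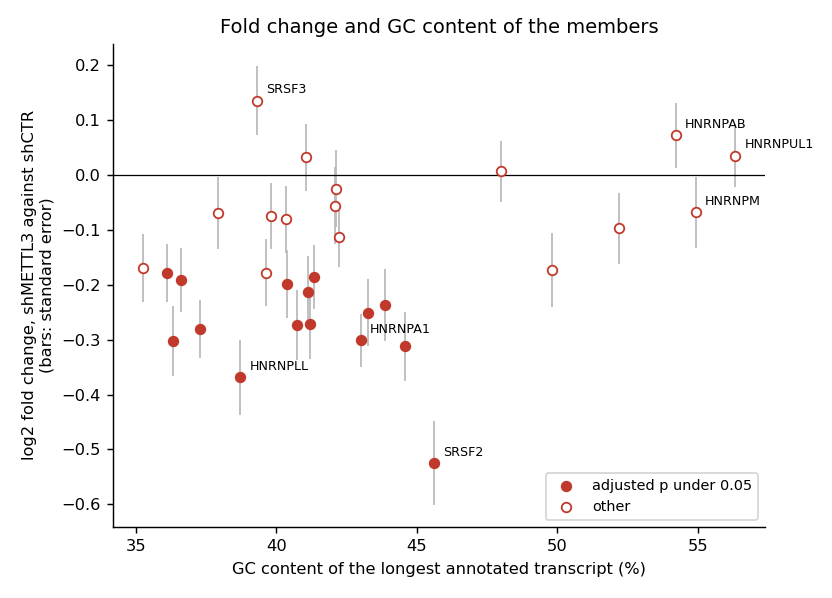
Log2 fold change in shMETTL3 against shCTR with its standard error (y axis) and GC content of the longest annotated transcript (x axis, %) for each of the 31 genes. Filled points have an adjusted p below 0.05; 14 of the 15 lie under 45% GC, and SRSF2 is the other.

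The gene models shared further features. At least 1 transcript annotated for NMD existed for 24 of the 31 genes (77.4%) against 43.1% of the 12512 tested genes with a coding transcript, and a retained intron for 22 (71.0%) against 57.8%. For the 15 genes called lower in shMETTL3 these were 13 and 11, and for the other 16 they were 11 and 11. The median number of annotated transcripts was 11 over the 31 genes and 8 over the 12512. It was 12 in the 15 called genes and 9.5 in the other 16. The part of this number in these shares was not tested. Gene-level counts add all transcripts of a gene, so a shift between the coding and the NMD form was not measured.

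RefSeq promoters (GRCh38.p14, 300 bases around each gene's start) matched 28 of the 31 genes, all but SRSF2, HNRNPA1 and TRA2A. On both strands, the CCAAT box occurred in 13 (46.4%) against 34.6% of all 35116 promoters, the GC box GGGCGG in 19 (67.9%) against 44.95%, and CCGGAA in 6 (21.4%) against 17.2%. The E-box CACGTG occurred in 7 (25%) against 7.26%, and TATAAA in 4 (14.3%) against 11.5%. Those 35116 promoters were not limited to the genes tested here. The E-box was in the promoters of HNRNPA3, HNRNPD, HNRNPDL, HNRNPH2, HNRNPH3, HNRNPM and HNRNPUL1, of which the first 3 and HNRNPH3 were called lower in shMETTL3. The promoters of HNRNPA3 (chr2:177212544-177212843, plus strand) and HNRNPDL (chr4:82430176-82430475, minus strand) are shown as the ones with the lowest fold changes among those 7, with CACGTG and CCAAT in capitals.
HNRNPA3 promoter: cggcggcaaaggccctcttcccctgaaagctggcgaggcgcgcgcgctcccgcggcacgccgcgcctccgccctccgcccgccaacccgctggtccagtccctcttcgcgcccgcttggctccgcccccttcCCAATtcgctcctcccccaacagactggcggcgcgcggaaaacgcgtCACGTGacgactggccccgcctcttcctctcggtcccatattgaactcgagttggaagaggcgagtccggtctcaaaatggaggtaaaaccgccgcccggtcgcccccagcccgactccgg
HNRNPDL promoter: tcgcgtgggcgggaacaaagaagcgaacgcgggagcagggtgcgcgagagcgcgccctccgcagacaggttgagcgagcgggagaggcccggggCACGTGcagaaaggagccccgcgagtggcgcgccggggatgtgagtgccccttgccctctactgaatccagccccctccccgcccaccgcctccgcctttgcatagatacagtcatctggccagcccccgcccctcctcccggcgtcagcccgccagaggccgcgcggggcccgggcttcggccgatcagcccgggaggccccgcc
These matches are descriptions of the letters, and binding was not measured.

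**Figure D5:**
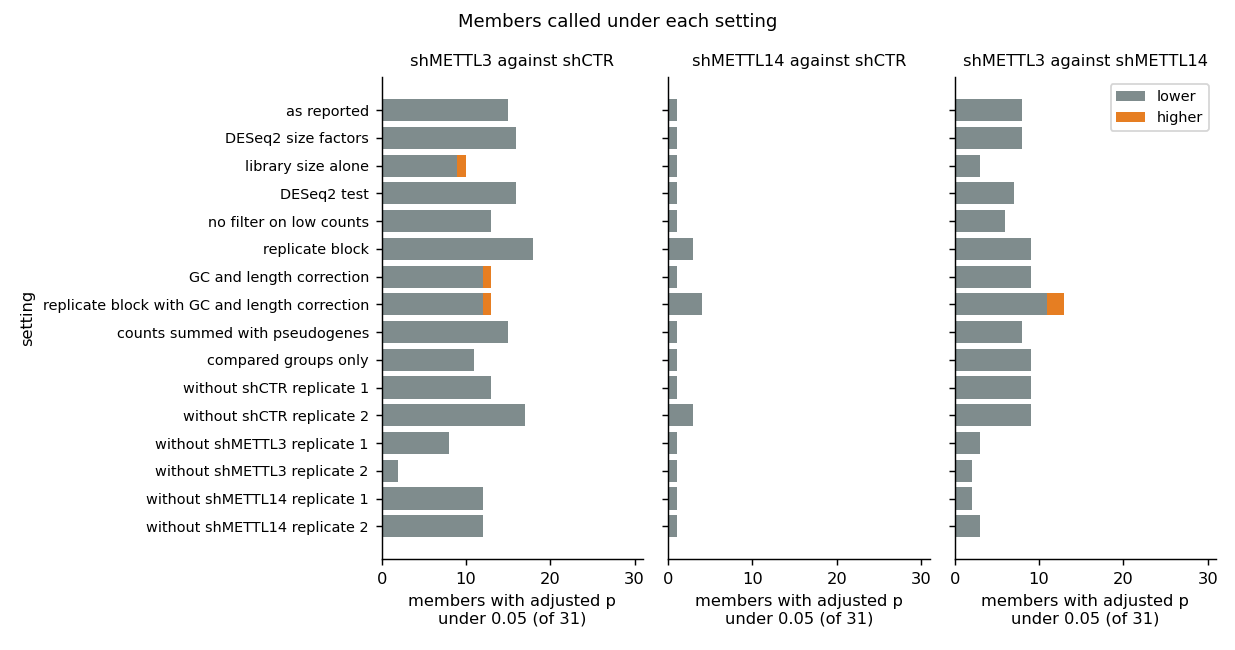
Number of the 31 genes called lower or higher (x axis) under each setting (y axis) in the 3 comparisons. For shMETTL3 against shCTR the count runs from 2 without the second shMETTL3 library to 18 with the replicate number as a block; for shMETTL14 it stays between 1 and 4.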

How the data were processed

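The 6 K562 libraries were grouped by the submitters' labels into shCTR, shMETTL3 and shMETTL14, 2 per group. The authors selected poly(A) RNA and deposited raw counts, that is, whole numbers of reads for each gene before any normalization; the submitters' processing notes name HTSeq 0.6.1 and hg38. The aligner, the annotation and the use of strand are not given in the sources used here. A name table gave symbols to 56558 identifiers and GENCODE 29 to 497 others.

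In edgeR 4.0.16 (R 4.3.3), 17686 genes passed filterByExpr at a minimum count of 10, and the quasi-likelihood test with TMM factors was fitted once on all 6 libraries, with Benjamini-Hochberg adjustment over all genes and a threshold of 0.05. CPM values carry the TMM factors, except the summed marker levels, which were scaled by library size alone. The 95% intervals are those of the fit. The scripts were tested on simulated counts. Every one of the 31 genes was described, and from each list up to 3 called genes with the largest fold change and at least 10 reads in every library of both groups. MATR3, with 2 rows, was left out of its list, and 1 gene that the rule names is not reported here. The members and lists were chosen with earlier results of these data known. Alternatives were DESeq2 1.42.0, other scalings, no filter, the compared groups only, a replicate block, a correction for GC content and length (mgcv 1.9.3), pseudogene reads added, and each library left out.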

Additional observations from a re-analysis of the deposited data

Results flagged for a closer look

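In 8 genes the effects of the knockdowns differed from each other by edgeR's quasi-likelihood test of the difference itself, shMETTL3 minus shMETTL14, at an adjusted p below 0.05. The log2 differences were -0.55 for SRSF2, -0.37 for SRSF8, -0.26 for SRSF1, -0.22 for HNRNPM, -0.20 for SRSF4, -0.20 for HNRNPDL, -0.17 for HNRNPA3 and -0.16 for HNRNPA1. All 8 were lower in shMETTL3. Of these, 7 were also called lower in shMETTL3 against shCTR and HNRNPM was not.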

How the results depend on the processing

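No fold change of a called gene changed sign in any of the 15 other settings. In shMETTL3 against shCTR the count of called genes was 15, and between 10 and 18 under the other scalings, tests, filters and corrections. Leaving out 1 library at a time gave between 2 and 17, with 8 and 2 when the first or the second shMETTL3 library was left out. SRSF5 and SRSF7 kept the call in 6 settings of 15, TRA2A in 5, SRSF11 in 8 and HNRNPD in 10. In shMETTL14 against shCTR the count was 1, 3 with the replicate block (HNRNPA1 and HNRNPH1 added), 4 with the block and the GC and length correction together, and between 1 and 3 with 1 library left out. Between the knockdowns the count was 8, 3 with library size alone, 13 with the replicate block and GC and length correction together (11 lower, 2 higher), and between 2 and 9 with 1 library left out. A lone library was assumed to vary like the other groups. Over all genes tested the share called lower also moved. Under the other scalings, tests, filters and corrections it was lowest in shMETTL3 against shCTR with no filter, at 2.83% of 37080 genes. It was highest there with the replicate block and GC and length correction together, at 12.5% of 17686 genes. In shMETTL14 it was 3.26%, 4.09% with the block and 6.27% with the block and correction together. Between the knockdowns it was 5.49%, 4.26% with library size alone and 10.96% with the block and correction together. The cause of these shifts was not tested.

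The labels do not say whether the replicate numbers pair the samples. Deviations of same-numbered libraries correlated at 0.06, 0.01 and -0.02 across genes. Such values cannot decide whether same-numbered libraries were prepared together, since the counts do not record it. With the replicate block 18 genes were called in shMETTL3 and 9 between the knockdowns, and no call was lost. Over all genes, DESeq2 called 1881 in shMETTL3 against 2912 with edgeR, and no filter on low counts gave 2185. Every gene had at least 1149 reads in each library, and with 2 libraries per group the SE in shMETTL3 ran from 0.0482 to 0.0766.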
